A study of Mus musculus with 13 samples.

Results

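Toll-like receptors and their adaptor Myd88 were followed in parametrial white adipose tissue (pmWAT, the fat pad beside the uterus) of female mice. The members were the 10 rows of the raw count table whose Ensembl identifier maps to Tlr1, Tlr2, Tlr3, Tlr4, Tlr6, Tlr7, Tlr8, Tlr9, Tlr13 or Myd88, out of 33618 genes in the table. Bulk RNA-Seq was available from 13 mice, with 1 library per mouse. The 7 control mice were Lmna fl/fl, with both alleles of the lamin A/C gene carrying loxP sites around exons 10 and 11, and are described without a Cre transgene. The 6 Lmna iADKO mice were Lmna fl/fl and also carried Adipoq-CreERT2, which drives a tamoxifen-inducible Cre recombinase from the adiponectin promoter and therefore only in adipocytes. Mice of both groups received tamoxifen at 50 mg/kg for 5 days in a row, starting when they were 12 to 14 weeks of age, and tissue was taken 2 weeks after tamoxifen. The comparison asks whether surface and endosomal receptors differed between fl/fl and iADKO fat.

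Toll-like receptors are membrane proteins with a leucine-rich ectodomain that binds microbial or host-derived molecules and a cytoplasmic TIR domain that recruits adaptor proteins. Tlr1, Tlr2, Tlr4 and Tlr6 work at the cell surface on lipids and lipopeptides, while Tlr3, Tlr7, Tlr8, Tlr9 and Tlr13 read nucleic acids inside endosomes. All of them except Tlr3 can use Myd88, which assembles the kinases that lead to NF-kB and AP-1 activity, whereas Tlr3 uses Ticam1 and leads mainly to interferon genes. In fat the genes of the family are transcribed mostly by macrophages and other leukocytes, with Tlr4 and Tlr3 also found in stromal cells and adipocytes.

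The start-site regions of 4 members are printed, chosen from values over all 13 mice. There Tlr1, Tlr9 and Tlr13 moved together (correlations of 0.821 to 0.957) while Tlr3 stood apart from them, as described further on. They were not the closest set. Tlr8 (0.916 and 0.95) and Tlr6 (0.861 and 0.91) followed Tlr1 and Tlr13 more closely than Tlr9 did (0.841 and 0.821). The windows of Tlr8 and Tlr6 are not printed. Without a pair of libraries that stood apart, the correlations of Tlr1, Tlr9 and Tlr13 with each other were 0.379 to 0.878. Each run covers 250 bases before and 50 bases from the start of the Ensembl canonical transcript in GENCODE vM39, on mouse build GRCm39. Runs are read 5′ to 3′ on the strand of the gene, and all 10 members had such a transcript. Capitals mark matches to short motifs searched on both strands. GAGGAA, the core bound by the myeloid factor PU.1, reads TTCCTC on the other strand, TGANTCA is the AP-1 site, and GGGANTTTCC is an NF-kB site.

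Tlr1, chr5:65090876-65091175, minus strand: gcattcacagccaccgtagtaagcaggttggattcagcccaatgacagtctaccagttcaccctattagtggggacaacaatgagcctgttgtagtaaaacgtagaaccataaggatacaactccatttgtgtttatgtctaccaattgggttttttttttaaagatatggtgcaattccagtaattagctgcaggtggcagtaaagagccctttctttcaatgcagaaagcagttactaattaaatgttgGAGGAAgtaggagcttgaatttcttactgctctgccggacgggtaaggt
Tlr13, chrX:105186561-105186860, plus strand: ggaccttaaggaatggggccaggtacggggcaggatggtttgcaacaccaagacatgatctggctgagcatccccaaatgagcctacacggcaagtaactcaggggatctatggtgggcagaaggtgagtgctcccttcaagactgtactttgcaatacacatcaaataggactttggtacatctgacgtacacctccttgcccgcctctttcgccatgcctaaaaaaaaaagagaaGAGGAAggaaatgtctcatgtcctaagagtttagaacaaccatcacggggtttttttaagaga
Tlr9, chr9:106099547-106099846, plus strand: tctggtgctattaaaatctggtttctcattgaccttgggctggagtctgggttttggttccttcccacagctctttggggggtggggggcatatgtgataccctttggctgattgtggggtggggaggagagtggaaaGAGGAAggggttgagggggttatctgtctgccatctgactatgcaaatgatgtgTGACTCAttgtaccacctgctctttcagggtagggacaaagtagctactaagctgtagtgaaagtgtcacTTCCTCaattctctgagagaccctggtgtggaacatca
Tlr3, chr8:45863375-45863674, minus strand: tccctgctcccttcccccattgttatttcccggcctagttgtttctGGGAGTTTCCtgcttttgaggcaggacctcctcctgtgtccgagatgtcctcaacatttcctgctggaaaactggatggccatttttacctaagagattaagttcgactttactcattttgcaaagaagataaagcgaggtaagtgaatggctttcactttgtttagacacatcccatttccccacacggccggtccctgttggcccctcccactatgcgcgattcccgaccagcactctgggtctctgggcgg

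The GAGGAA core occurred in the windows of 6 of 10 members (Tlr1, Tlr2, Tlr4, Tlr8, Tlr9 and Tlr13), against 27.5% of 21770 promoter windows of the same length. In Tlr1 the match began 1 base after the first base of the transcript, and in Tlr13 it ended 8 bases before that base. The AP-1 letters occurred in Tlr9 (7.1% of all windows), and the NF-kB letters in Tlr3 (0.5% of all windows). GAAANNGAAA, resembling the interferon-stimulated response element, was in 3.8% of all windows and the E-box CACGTG in 7.8%, and neither was in the window of a member. Tlr6 and Tlr7, whose windows lack the GAGGAA core, also moved together, with a correlation of 0.921 over all 13 mice. It was 0.772 without the pair of libraries that stood apart. These matches describe letters in the windows and were not tested for binding or for a link to the levels.

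Library totals were 18854223 to 19776491 counts over the 13 mice, and all 10 members passed the filter on low counts, with 72 to 1446 counts per mouse and gene. Levels are given as CPM, the share of a library's counts scaled to a fixed total, after TMM normalization. The counts of Lmna were 84.7 ± 7.51 CPM in fl/fl (SD, n = 7) and 96.7 ± 11.5 CPM in iADKO (SD, n = 6), a log2 fold change of 0.19 (SE 0.079, edgeR adjusted p = 0.0785). Lmna counts were taken over the whole gene and over every cell type of the tissue, so they do not check a deletion of 2 exons in adipocytes, and directions rest on the labels. Each of the 8 adipocyte markers was present in every mouse (Adipoq, Plin1, Cidec, Lep, Lipe, Pparg, Fabp4 and Retn). In bulk tissue, fewer or more cells of a type cannot be told apart from less or more RNA per cell.

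A pair of libraries stood apart from the rest of their groups. Replicate 5 of fl/fl had the highest fl/fl level of 9 of 10 members, all but Myd88, and replicate 6 of iADKO had the lowest iADKO level of 9 of 10 members, all but Tlr3. Summed adipocyte markers were lower in fl/fl replicate 5 (10370 CPM, the lowest of fl/fl) than in iADKO replicate 6 (12140 CPM, the highest of iADKO). Their library names carry consecutive animal numbers. Whether the labels of these mice hold was not tested. Most results on the members are given with and without both, and those on the pathway and marker lists are followed by their values without both. This pair was chosen after these levels were seen. Leaving out the highest fl/fl and the lowest iADKO mouse of most members widens their difference by construction. Values without both are descriptions, and their p-values are no further evidence of a difference.

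Between genotypes, 7 of 10 members were higher in iADKO and 0 lower by edgeR's quasi-likelihood test at an adjusted p under 0.05 over the 16753 genes tested. Over all genes tested, 14.1% were higher in iADKO and 16.3% lower. The median log2 fold change of the members was 0.64, with a range of 0.14 to 1.10, against 0.03 over all genes tested. Among the endosomal receptors 4 of 5 passed the test (Tlr7, Tlr8, Tlr9 and Tlr13), among the surface receptors 2 of 4 (Tlr1 and Tlr6), and Myd88 passed as well. No member was higher in every iADKO mouse than in every fl/fl mouse, a separation found in 2.71% of all genes tested. Without fl/fl replicate 5 and iADKO replicate 6, 9 of 10 members passed, all but Tlr3, while calls over all genes also rose, to 19.6% higher and 23.3% lower. As both were left out for their levels of these members, that count is a description only.

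**Figure D1:**
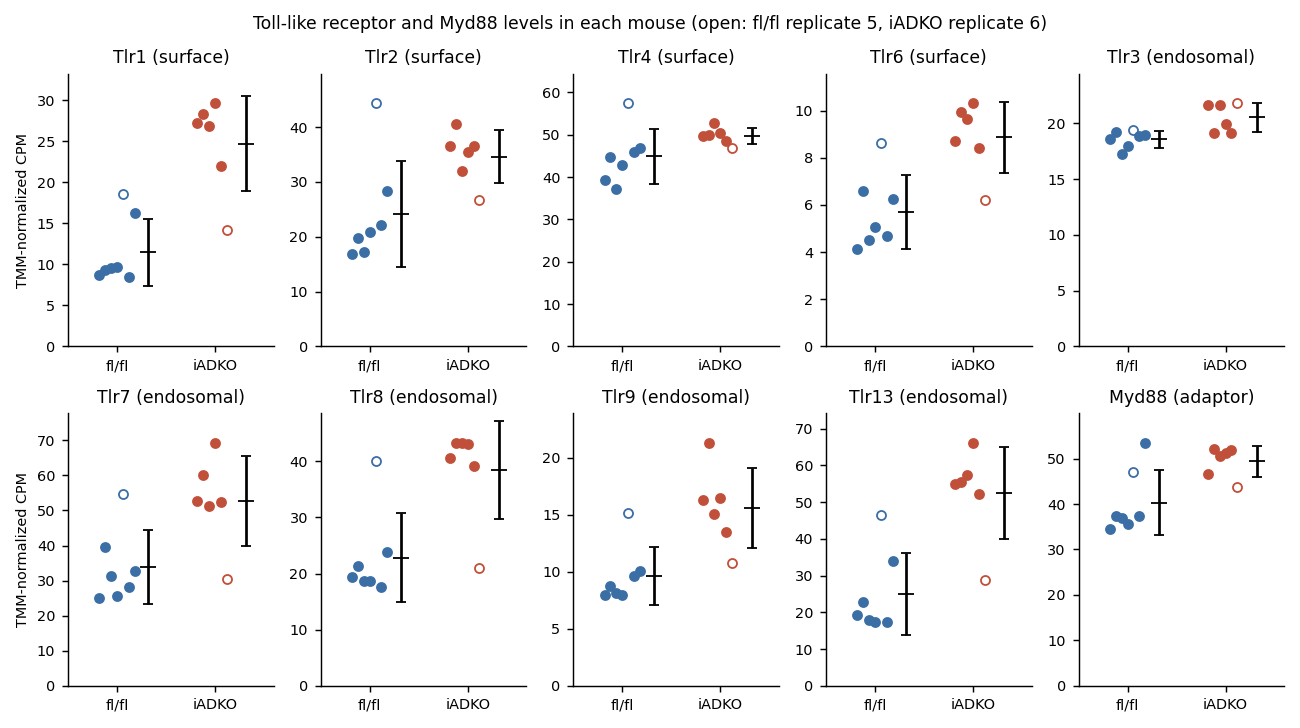
TMM-normalized CPM (y axis, linear from 0) of each member in 7 fl/fl mice (blue) and 6 iADKO mice (red), with bars for the mean and SD of each group. Open circles are fl/fl replicate 5 and iADKO replicate 6, which lie toward the other genotype in most panels, while the Tlr3 panel spans only 17.2 to 21.8 CPM.

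Among the surface receptors, Tlr1 differed most. This receptor pairs with Tlr2 to bind triacylated lipopeptides of bacteria. Its levels in the fl/fl mice ran from 8.50 to 18.5 CPM with a median of 9.53 CPM. In the iADKO mice they ran from 14.1 to 29.6 CPM with a median of 27.1 CPM. The iADKO mice other than replicate 6 all lay above every fl/fl mouse (5 of 6), and in fl/fl only replicates 5 and 7 exceeded 10 CPM. The log2 fold change was 1.10 (SE 0.221, adjusted p = 0.00298, exact two-sided permutation p = 0.0035), and 1.36 (SE 0.156) without replicates 5 and 6.

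Tlr6 pairs with Tlr2 on diacylated lipopeptides. Its fl/fl levels were 4.14 to 8.60 CPM (median 5.05 CPM) and its iADKO levels 6.19 to 10.3 CPM (median 9.17 CPM). Only fl/fl replicate 5 reached the iADKO levels of replicates other than 6, and 4 of 6 iADKO mice lay above all fl/fl mice. Tlr6 had a log2 fold change of 0.64 (SE 0.170, adjusted p = 0.0125, exact permutation p = 0.00699), and 0.83 (SE 0.129) without both libraries. Tlr1 and Tlr6 lie side by side on the minus strand of chromosome 5 and are near copies of each other. Of the 100-base windows of the canonical transcript, 8.79% in Tlr1 and 6.10% in Tlr6 were identical to a window of the other gene, so reads from those stretches can be split between them by the counting, and both values are uncertain to that extent.

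Tlr2, the common partner of Tlr1 and Tlr6, did not pass the test over all mice. It measured 16.9 to 44.4 CPM in fl/fl (median 20.8 CPM) and 26.7 to 40.5 CPM in iADKO (median 36.0 CPM). The highest level of all 13 mice was that of fl/fl replicate 5, so no iADKO mouse lay above all fl/fl mice. With that mouse left aside, 5 of 6 iADKO mice lay above the remaining fl/fl mice. Its log2 fold change was 0.51 (SE 0.205, adjusted p = 0.0733, exact permutation p = 0.0256), and 0.77 (SE 0.119, adjusted p = 0.000214) without replicates 5 and 6.

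Tlr4, the receptor for bacterial lipopolysaccharide, had the smallest difference of the surface receptors. Levels were 37.2 to 57.4 CPM in fl/fl (median 44.7 CPM) and 46.8 to 52.7 CPM in iADKO (median 49.8 CPM). The iADKO mice lay within a narrow band inside the fl/fl range. Its log2 fold change was 0.15 (SE 0.082, adjusted p = 0.191, exact permutation p = 0.10), and 0.21 (SE 0.063, adjusted p = 0.0169) without both libraries.

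The endosomal receptors other than Tlr3 were higher in iADKO, and Tlr13 differed most. Tlr13, which mice use to detect bacterial ribosomal RNA and which humans lack, is encoded on the X chromosome. Its levels were 17.3 to 46.5 CPM in fl/fl (median 19.4 CPM) and 28.7 to 66.2 CPM in iADKO (median 55.2 CPM). The iADKO mice other than replicate 6 (5 of 6) lay above every fl/fl mouse, and replicate 6 lay below fl/fl replicates 5 and 7. This amounted to a log2 fold change of 1.07 (SE 0.262, adjusted p = 0.0097, exact permutation p = 0.00524), and 1.39 (SE 0.169) without both libraries.

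Tlr8 and Tlr7, neighbours on the X chromosome, both bind single-stranded RNA and its breakdown products. Tlr8 measured 17.7 to 40.1 CPM in fl/fl (median 19.4 CPM) and 21.0 to 43.3 CPM in iADKO (median 41.9 CPM). The fl/fl mice other than replicate 5 stayed at or below 23.9 CPM and the iADKO mice other than replicate 6 at or above 39.2 CPM. Its log2 fold change was 0.75 (SE 0.211, adjusted p = 0.0174, exact permutation p = 0.0111), and 1.05 (SE 0.074, adjusted p = 3.16e-07) without them. Tlr7 measured 24.9 to 54.8 CPM in fl/fl (median 31.4 CPM) and 30.4 to 69.4 CPM in iADKO (median 52.6 CPM). Only iADKO replicates 2 and 4 lay above all fl/fl mice, since fl/fl replicate 5 reached 54.8 CPM. The log2 fold change of Tlr7 was 0.64 (SE 0.204, adjusted p = 0.0323, exact permutation p = 0.0216), and 0.89 (SE 0.121, adjusted p = 9.37e-05) without both libraries. Tlr7 passed the test in 4 of 13 fits that each left out 1 mouse (fl/fl replicate 2, 5 or 7, or iADKO replicate 6), and the adjusted p of the others reached 0.0755.

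Tlr9, the receptor for unmethylated CpG DNA, ran from 7.93 to 15.1 CPM in fl/fl (median 8.78 CPM) and from 10.8 to 21.3 CPM in iADKO (median 15.7 CPM). Replicate 2 of iADKO was the highest and replicate 6 the lowest of its group, and 3 of 6 iADKO mice lay above all fl/fl mice. For Tlr9 the log2 fold change was 0.69 (SE 0.171, adjusted p = 0.0089, exact permutation p = 0.00583), and 0.90 (SE 0.114) without both libraries.

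Tlr3, the receptor for long paired RNA strands, did not share this pattern. It measured 17.2 to 19.4 CPM in fl/fl (median 18.8 CPM) and 19.1 to 21.8 CPM in iADKO (median 20.8 CPM). The mice of both groups lay close to each other, and 4 of 6 iADKO mice, replicate 6 among them as the highest, lay above all fl/fl mice. The difference was small, with a log2 fold change of 0.14 (SE 0.0535, adjusted p = 0.0539, exact permutation p = 0.00583), and 0.12 (SE 0.058, adjusted p = 0.128) without both libraries.

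Myd88 differed less than most receptors that use it. Its levels were 34.5 to 53.5 CPM in fl/fl (median 37.3 CPM) and 43.9 to 52.1 CPM in iADKO (median 51.0 CPM). The highest level of all 13 mice was that of fl/fl replicate 7, and no iADKO mouse lay above it. The log2 fold change was 0.29 (SE 0.0979, adjusted p = 0.0361, exact permutation p = 0.0186), and 0.34 (SE 0.0994, adjusted p = 0.014) without replicates 5 and 6. Myd88 passed in 4 of 13 fits that each left out 1 mouse (fl/fl replicate 5 or 7, or iADKO replicate 1 or 6), and the adjusted p of the others reached 0.0732. Myd88 shares 1745 bases with Acaa1a, a peroxisomal thiolase gene on the other strand whose level was lower in iADKO (log2 fold change -0.34, adjusted p = 0.00164). The library kit keeps the strand, but the strand setting of the counting is not given in the sources used here, so reads of the overlap cannot be assigned with certainty. The annotated span of Tlr6 likewise overlaps Fam114a1 on the other strand, whose log2 fold change was -0.02 (adjusted p = 0.82).

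When levels were divided by exon length, Myd88 was the highest member in both genotypes, at 10.4 ± 1.83 CPM per kb in fl/fl (SD, n = 7) and 12.7 ± 0.867 CPM per kb in iADKO (SD, n = 6). In fl/fl it was followed by Tlr4 at 6.41 ± 0.935 and Tlr7 at 6.39 ± 1.97 CPM per kb, which did not differ beyond their spread. Tlr13 (5.28 ± 2.36), Tlr8 (4.48 ± 1.55), Tlr2 (4.41 ± 1.76), Tlr3 (3.48 ± 0.144) and Tlr1 (3.40 ± 1.21 CPM per kb) came next, each within the spread of its neighbour. Tlr9 at 2.78 ± 0.732 CPM per kb lay within the spread of Tlr1, and Tlr6 at 1.17 ± 0.324 CPM per kb was lowest. In iADKO Tlr13 (11.1 ± 2.66 CPM per kb) and Tlr7 (9.94 ± 2.44 CPM per kb) followed Myd88, and Tlr4 (7.09 ± 0.283 CPM per kb) lay below Tlr8 (7.54 ± 1.71) and Tlr1 (7.31 ± 1.71), within their spread. Without fl/fl replicate 5 and iADKO replicate 6, Tlr13 had 4.53 and 12.1, Tlr7 5.74 and 10.8, and Tlr4 6.11 and 7.17 CPM per kb as means of fl/fl and iADKO.

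**Figure D2:**
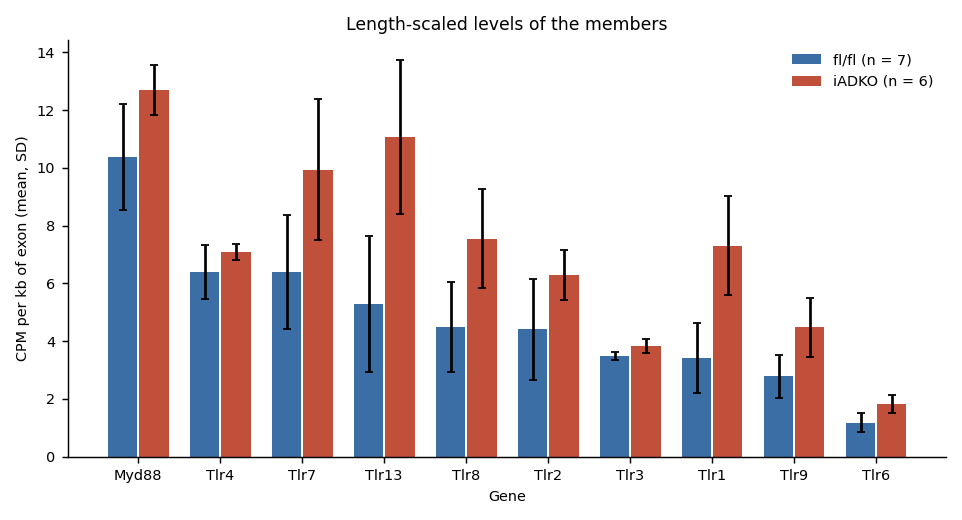
Mean CPM per kb of exon (y axis, linear from 0) of each member in fl/fl (blue, n = 7) and iADKO (red, n = 6), ordered by the fl/fl level, with SD bars. Myd88 is highest at 10.4 and 12.7, Tlr13 goes from 5.28 to 11.1, and Tlr6 is lowest at 1.17 and 1.82 CPM per kb.

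The balance of surface and endosomal receptors overlapped between the genotypes. The sum of the 9 receptors was 37.8 ± 10.5 CPM per kb in fl/fl (SD, n = 7) and 59.4 ± 10.2 CPM per kb in iADKO (SD, n = 6), as a description of the members with no test. Surface receptors made up 40.8% ± 2.09 of that sum in fl/fl (SD, n = 7) and 38.2% ± 2.20 in iADKO (SD, n = 6), and the groups overlapped, at 38.4% to 43.7% and 35.8% to 42.4%. Among the lipopeptide receptors, the per-length ratio of Tlr1 to Tlr2 was 0.622 to 0.932 in fl/fl and 0.863 to 1.37 in iADKO. That of Tlr6 to Tlr2 was 0.219 to 0.376 in fl/fl and 0.261 to 0.340 in iADKO, one range lying within the other. Without replicates 5 and 6 the sum was 34.2 ± 4.59 and 63.3 ± 4.18 CPM per kb, and the surface share was 41.0% ± 2.19 in fl/fl (38.4% to 43.7%, n = 6) and 37.4% ± 0.906 in iADKO (35.8% to 38.2%, n = 5), ranges that no longer overlapped. The ratio of Tlr1 to Tlr2 was then 0.622 to 0.932 and 0.981 to 1.37, and that of Tlr6 to Tlr2 0.239 to 0.376 and 0.261 to 0.340.

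The members moved together from mouse to mouse inside each genotype. After the mean of each genotype was subtracted from the log2 CPM, the 36 pairs of members without Tlr3 had Pearson correlations of 0.587 to 0.957 over the 13 mice (median 0.83). The 9 pairs with Tlr3 had correlations of -0.077 to 0.455 (median 0.033). Most correlations among members other than Tlr3 were lower without the pair of libraries that stood apart, while those of Myd88 with Tlr1, Tlr2, Tlr8 and Tlr13 were higher. Over the other 11 mice the pairs without Tlr3 ranged from 0.242 to 0.937 (median 0.54), and the pairs with Tlr3 from -0.021 to 0.578 (median 0.188). These are descriptions over values that share a library, a depth and a tissue composition.

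Outside the family, the genes most like each member over the 13 mice, among 13825 genes, included several leukocyte genes. These correlations include fl/fl replicate 5 and iADKO replicate 6 and were not computed without them. By ranks (Spearman), the closest gene of each member had a correlation of 0.824 to 0.978. Tlr2 was closest to Ptprc, the pan-leukocyte antigen Cd45 (Pearson r = 0.976). Tlr13 was closest to the myeloid inhibitory receptor Pirb (r = 0.984) and to the lysosomal galactosidase Gla (r = 0.983), and Tlr1 to Lrrc25 (r = 0.972), Grb2 (r = 0.968) and Btk (r = 0.966). Tlr7 was closest to Inpp5d, a phosphatase of blood cells (r = 0.978), Tlr8 to the kinase Taok3 (r = 0.98) and Tlr9 to Wipf1, a partner of the actin regulator of blood cells (r = 0.951). Tlr6 was closest to Anpep (r = 0.967), Tlr4 to Trim36 (r = 0.97) and Myd88 to the kinase gene Map3k8 (r = 0.957). Tlr3 again differed, with Slc35a5 (r = 0.909), Lin7c (r = 0.866) and B2m (r = 0.86). On the log2 scale, Ptprc differed by 0.71 between genotypes (adjusted p = 0.00846) and Slc35a5 had -0.02 (adjusted p = 0.809).

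Markers of leukocytes were higher in iADKO beside the receptors. All 5 pan-leukocyte markers passed the test (Ptprc log2 fold change 0.71, SE 0.173), and their summed level was 391.9 to 960.1 CPM in fl/fl and 659.3 to 1072 CPM in iADKO. Of 10 macrophage markers 7 were higher and 0 lower (Adgre1, the antigen F4/80, log2 fold change 0.82, SE 0.185, adjusted p = 0.00563), with summed levels of 1409 to 2614 CPM in fl/fl and 1824 to 3146 CPM in iADKO. The fl/fl mouse at 2614 CPM was replicate 5 and the iADKO mouse at 1824 CPM was replicate 6. Further lists with higher members were dendritic cells (5 of 8), monocytes and neutrophils (4 of 8), T and NK cells (4 of 8), B cells (2 of 6), mast cells (2 of 5) and mesothelial and epithelial cells (2 of 6). Adipose stem and progenitor cell markers had 0 of 6 in either direction, endothelial markers 0 higher and 2 of 7 lower, and all 8 adipocyte markers were lower, with summed levels of 10370 to 19740 CPM in fl/fl and 6992 to 12140 CPM in iADKO. Over all genes tested, 14.1% were higher and 16.3% lower, and 19.6% and 23.3% without fl/fl replicate 5 and iADKO replicate 6. No marker of any list was at 0 in every mouse. Without replicates 5 and 6, 8 macrophage, 5 pan-leukocyte, 5 dendritic, 5 monocyte and neutrophil, 2 T and NK, 2 B, 2 mast, 1 mesothelial and epithelial and 2 stem and progenitor markers were higher, and 8 adipocyte and 2 endothelial markers lower. The summed macrophage level was then 1409 to 1893 CPM in fl/fl and 2628 to 3146 CPM in iADKO, and the pan-leukocyte level 391.9 to 702.5 and 920.5 to 1072 CPM.

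**Figure D3:**
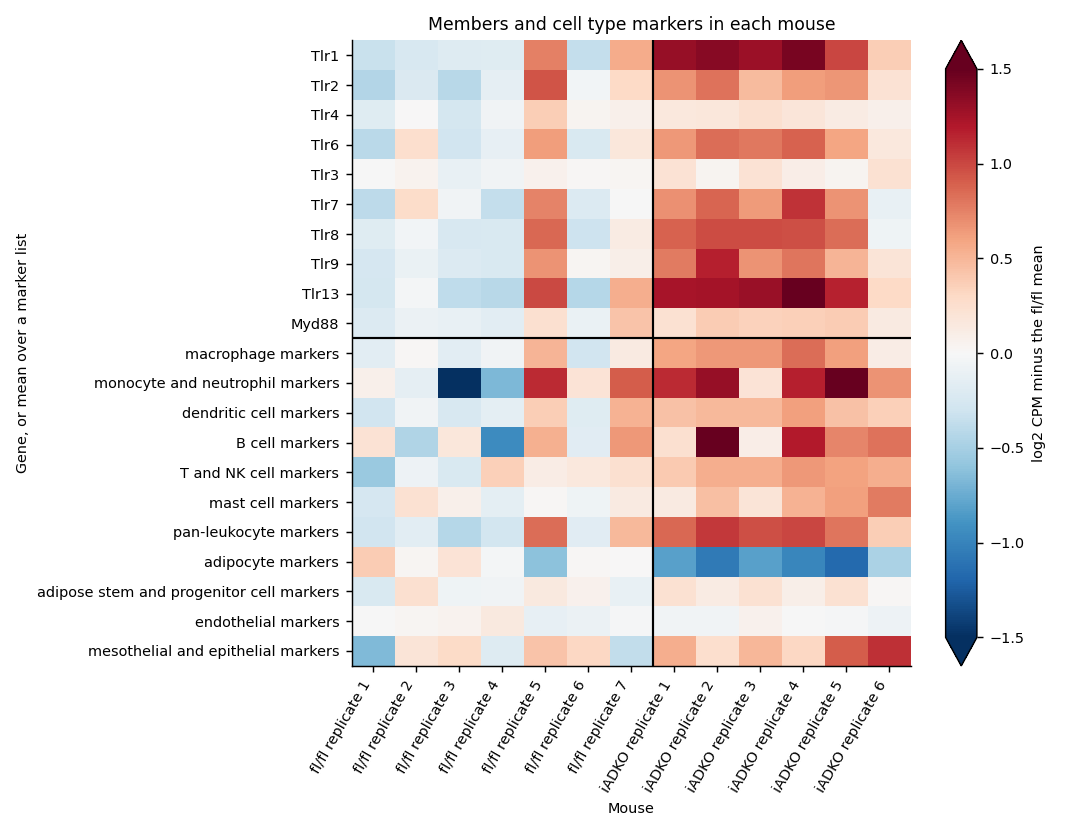
Log2 CPM minus the fl/fl mean (color, blue lower and red higher, saturated beyond 1.5) of each member and mean over each cell type marker list (rows) in each mouse (columns, fl/fl left and iADKO right of the line). Most receptors and the macrophage and pan-leukocyte markers are red in fl/fl replicate 5 and pale in iADKO replicate 6, while Tlr3 stays near 0 throughout and adipocyte markers are blue in iADKO.

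Levels were also set against Ptprc in the same mouse. Per 100 CPM of Ptprc, Tlr8 was 22.8 ± 2.92 in fl/fl (SD, n = 7) and 23.1 ± 3.21 in iADKO (SD, n = 6), Tlr9 9.76 ± 0.897 and 9.39 ± 1.07, and Tlr7 34.3 ± 6.43 and 31.6 ± 4.70. Tlr1 (11.4 ± 1.33 and 14.9 ± 2.16) and Tlr13 (24.4 ± 3.93 and 31.5 ± 5.00) had higher mean ratios in iADKO. Ratios of Tlr4 (46.4 ± 6.99 and 30.6 ± 4.01), Tlr3 (19.7 ± 4.56 and 12.8 ± 2.67) and Myd88 (41.6 ± 6.27 and 30.3 ± 2.89) were lower in iADKO. Without replicates 5 and 6 the mean ratios were 22.5 and 24.3 for Tlr8, 9.84 and 9.52 for Tlr9, 34.3 and 33.1 for Tlr7, 11.4 and 15.5 for Tlr1, and 23.6 and 33.2 for Tlr13. They were 48.3 and 29.2 for Tlr4, 21.0 and 11.8 for Tlr3, and 43.7 and 29.3 for Myd88. These ratios carry no test.

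With the mean log2 CPM of the macrophage markers of each mouse as a covariate, 0 of 10 members passed the test, and with that of the pan-leukocyte markers also 0. The log2 fold change of Tlr1 was then 0.22 (SE 0.148) and 0.25 (SE 0.135), and that of Tlr13 0.03 and 0.09. Tlr2, Tlr4, Tlr7 and Tlr8 had negative values in both fits, and Tlr3 kept 0.15 and 0.11. Over all genes tested, the same fits called 0.495% higher and 0.346% lower with the macrophage score, and 0.525% higher and 0.585% lower with the pan-leukocyte score. Both scores were themselves higher in iADKO, as the marker counts above show. The part of cell composition in the differences of the members was not tested beyond these values.

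**Figure D4:**
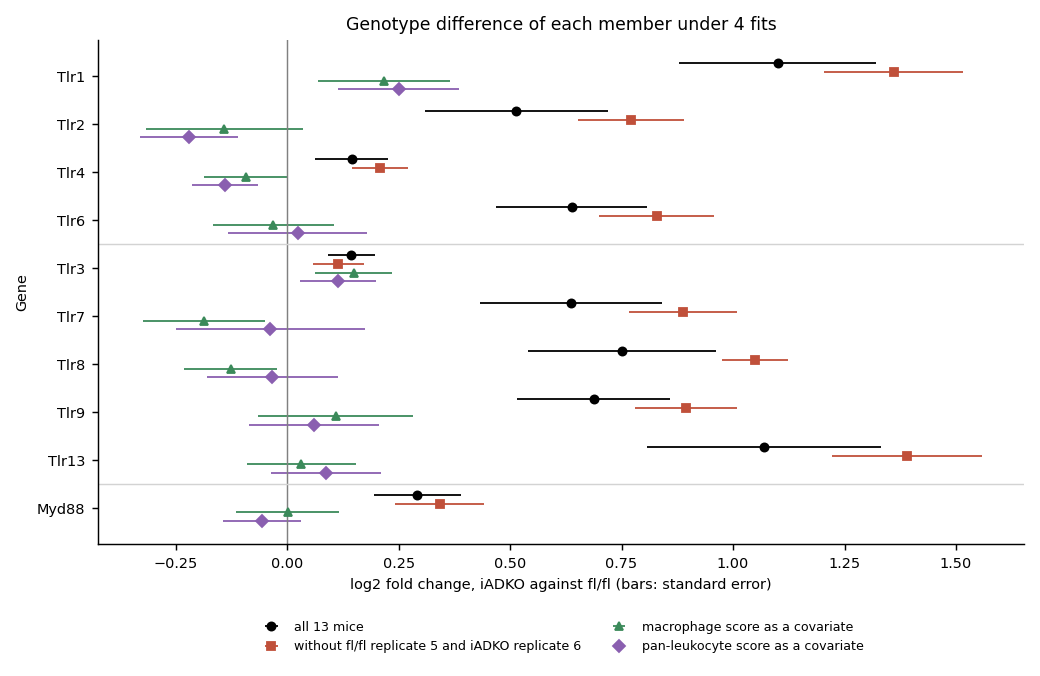
Log2 fold change of iADKO against fl/fl (x axis) for each member (y axis), with standard errors, from the fit of all 13 mice, the fit without fl/fl replicate 5 and iADKO replicate 6, and fits with a macrophage or a pan-leukocyte score as a covariate. Tlr1 goes from 1.10 with all mice to 1.36 without the pair of libraries and to 0.22 or 0.25 with a covariate, while Tlr3 stays between 0.11 and 0.15.

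Library names carry animal numbers that fall into 5 series, and the labels do not say what a series shares. A series with both genotypes in 2 or more mice each held 2 fl/fl mice (replicates 4 and 5) and 2 iADKO mice (replicates 4 and 6). Its difference of mean log2 CPM was 0.61 for Tlr1, 0.61 for Tlr13, 0.13 for Tlr8 and -0.03 for Tlr4, with a median of 0.24 over the members. Another series held 3 fl/fl mice and 1 iADKO mouse and gave 1.62 for Tlr1, 1.47 for Tlr13, 1.13 for Tlr8 and 0.31 for Tlr4, with a median of 1.06. The remaining series held 1 genotype each. With the series as a block 0 members passed the test, and the log2 fold change of Tlr1 was 1.08 (SE 0.327). Tlr13 had 0.97 (SE 0.382), Tlr9 0.75 (SE 0.261) and Tlr6 0.58 (SE 0.260) in that fit, which called 0.239% of all genes higher and 0.0836% lower.

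The rest of the pathway was taken from lists of 108 genes, of which 102 could be tested. The test called 38 higher in iADKO and 3 lower, with a median log2 fold change of 0.24. Over all genes tested, 14.1% were higher and 16.3% lower, and these shares also apply beside each list below. Without fl/fl replicate 5 and iADKO replicate 6, 54 were higher and 8 lower, against 19.6% and 23.3% over all genes. Higher then were 1 of 3 other mouse receptors, 4 of 7 ligand binding, 3 of 8 trafficking and 7 of 8 endolysosomal genes. So were 3 of 5 adaptors, 7 of 16 kinases and ubiquitin ligases, 6 of 11 transcription factors and 6 of 13 negative regulators. NF-kB targets had 8 of 14 higher, interferon genes 5 of 11 and interleukin 1 family receptors 4 of 6. Lower were 2 ligand binding genes, 1 trafficking gene, 3 kinases and ubiquitin ligases, 1 NF-kB target and 1 interferon gene. Among the pathway genes named here, leaving out both ended the call of Tlr11 and brought Tlr5, Lbp and Clec7a past the threshold. Rnaset2a, Rnaset2b, Ube2v1, Il6 and Il12a were too low to be tested, and Ifnb1, which has no row in the table used, was not analysed here. Among the other mouse receptors, Tlr11 passed (log2 fold change 0.42, SE 0.150, adjusted p = 0.0482) at 2.63 ± 0.570 CPM in fl/fl (SD, n = 7) and 3.51 ± 0.535 CPM in iADKO (SD, n = 6). Tlr11 passed in 2 of 13 fits that each left out 1 mouse (fl/fl replicate 3 or 4) and had an adjusted p of 0.102 without both libraries and 0.0572 with DESeq2 size factors. Tlr5, the flagellin receptor, had 0.15 (adjusted p = 0.292) and Tlr12 had 0.14 (adjusted p = 0.644).

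**Figure D5:**
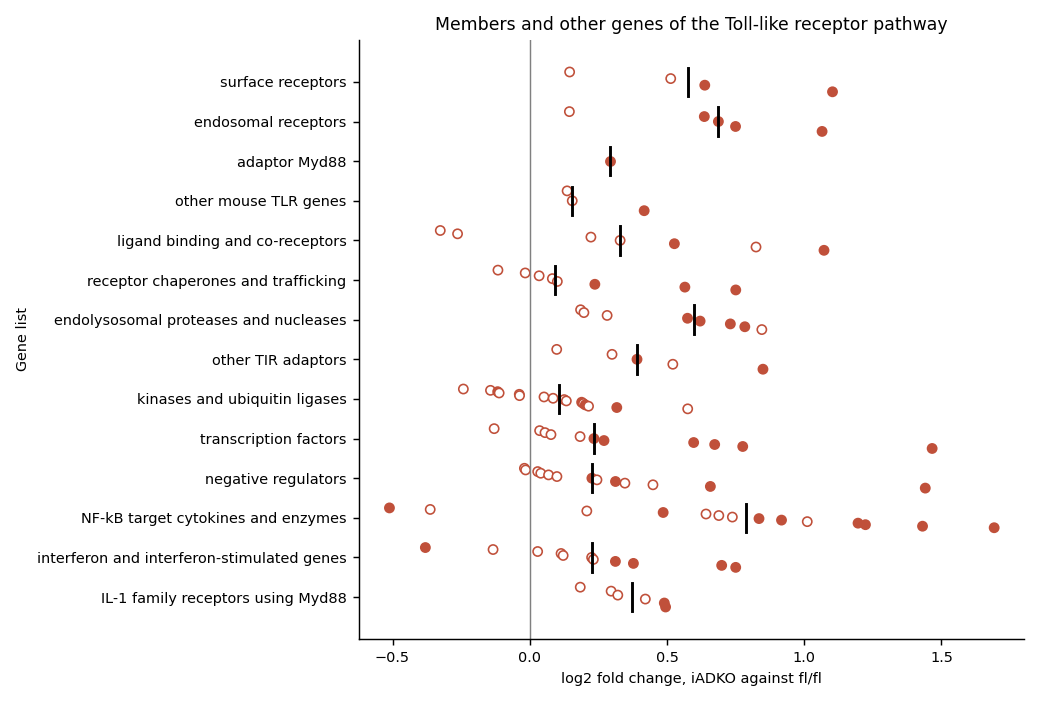
Log2 fold change of iADKO against fl/fl (x axis) for each tested gene of the member lists and the pathway lists (rows), with filled circles for an adjusted p under 0.05, open circles for the rest and a black bar at the median of each list. Endosomal receptors have a median of 0.69 and surface receptors 0.58, against 0.79 for NF-kB target cytokines and enzymes and 0.09 for receptor chaperones.

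Of the genes that help receptors bind ligands, 2 of 7 were higher. Cd180, a receptor relative that modulates lipopolysaccharide responses, rose from 17.6 ± 6.28 CPM in fl/fl (SD, n = 7) to 37.1 ± 9.08 CPM in iADKO (SD, n = 6), a log2 fold change of 1.07 (SE 0.220, adjusted p = 0.0035), and its partner Ly86 had 0.53 (adjusted p = 0.0431). Lbp, which carries lipopolysaccharide in the circulation, had -0.33 (adjusted p = 0.0611), and the fungal glucan receptor Clec7a 0.82 (adjusted p = 0.0608). Cd14, the cellular acceptor of lipopolysaccharide for Tlr4, had 0.33 (adjusted p = 0.362). Cd14 was named after its values were seen.

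Genes that place the nucleic acid receptors and prepare their ligands included several of the higher ones. Unc93b1, which escorts the endosomal receptors out of the endoplasmic reticulum, measured 154.9 ± 42.8 CPM in fl/fl (SD, n = 7) and 229.3 ± 37.1 CPM in iADKO (SD, n = 6), a log2 fold change of 0.57 (SE 0.161, adjusted p = 0.0177). Of 8 trafficking genes 3 were higher, the kinase Syk among them at 0.75 (adjusted p = 0.0268). Of 8 tested endolysosomal proteases and nucleases 4 were higher, among them Lgmn, a protease that trims receptor ectodomains, at 0.78 (SE 0.209, adjusted p = 0.0134). The exonuclease Pld3 had 0.73 (adjusted p = 0.0132) and the lysosomal DNase Dnase2a 0.62 (adjusted p = 0.0117).

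Downstream of the receptors, 2 of 5 other TIR adaptors were higher. These were Pik3ap1, which links receptors to PI3K (log2 fold change 0.85, adjusted p = 0.00236), and Ticam1, the adaptor of Tlr3 (0.39, SE 0.0856, adjusted p = 0.00438). Kinases and ubiquitin ligases had 3 of 16 higher and 1 lower, against 14.1% and 16.3% over all genes tested, and the values were small. Irak2 had 0.32 (adjusted p = 0.00345, exact permutation p = 0.000583, the smallest this design allows), Peli1 0.20 and Tbk1 0.19, while Map3k7, the kinase TAK1, had -0.12 (adjusted p = 0.0312). Of 11 transcription factors 6 were higher, among them Irf5 at 0.78 (adjusted p = 0.00493), Irf8 at 0.67 (adjusted p = 0.00279), the NF-kB subunit Rel at 0.60 (adjusted p = 0.0102) and Fos at 1.47 (SE 0.418, adjusted p = 0.0198). Irf5 acts with Myd88, and Irf8 is a lineage factor of myeloid cells.

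Of 13 negative regulators 4 were higher, led by Atf3 (log2 fold change 1.44, SE 0.285, adjusted p = 0.00316), with the ubiquitin-editing enzyme Tnfaip3 at 0.66 (adjusted p = 0.00467) and Nfkbia at 0.31 (adjusted p = 0.0327). NF-kB target cytokines and enzymes had 7 of 14 higher and 1 lower, with a median of 0.79. Cxcl10 rose from 2.88 ± 0.926 CPM in fl/fl (SD, n = 7) to 9.31 ± 1.13 CPM in iADKO (SD, n = 6), a log2 fold change of 1.69 (SE 0.189, adjusted p = 0.000162). The monocyte chemokine Ccl2 had 1.43 (adjusted p = 0.00313), Ccl4 1.22 (adjusted p = 0.0178) and Ccl5 0.49 (adjusted p = 0.0121). Nos2, inducible nitric oxide synthase, had -0.51 (adjusted p = 0.0392) and was named after its values were seen.

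Of 11 tested interferon and interferon-stimulated genes, 4 were higher. The antiviral gene Mx1 reached 0.75 on the log2 scale (adjusted p = 0.0134), Oas1a 0.70 (adjusted p = 0.0139) and Rsad2 0.38 (adjusted p = 0.0147). Of 6 receptors of the interleukin 1 family, which share Myd88 with the Toll-like receptors, 2 were higher, Il1rl1 at 0.49 (adjusted p = 0.00861) and Il18rap at 0.49 (adjusted p = 0.0461). Several of these calls were lost when 1 mouse was left out. Of the 13 fits that each left out 1 mouse, Tbk1 and Nfkbia passed in 7, Syk and Map3k7 in 6, Ly86 and Nos2 in 4, and Il18rap in 3, and their highest adjusted p was 0.0606, 0.0812, 0.0604, 0.0713, 0.0927, 0.0789 and 0.0883 in that order. Each of these 7 calls was lost without iADKO replicate 4 and without iADKO replicate 5, among others. The other pathway genes called above, apart from Tlr11, passed in 13 of 13. With the macrophage score as a covariate, 1 of the 102 pathway genes was called higher and 0 lower, against 0.495% and 0.346% over all genes.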

How the data were processed

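Bulk RNA-Seq of pmWAT from 13 mice (7 fl/fl, 6 iADKO; 1 library per mouse) was analysed from the raw gene counts that the authors deposited. The submitters' processing notes name FastQC 0.12.1, STAR 2.7.11a and build mm39. The counting tool, its strand setting and the annotation are not given in the sources used here. The authors also deposited rlog values, a regularized log2 scale from DESeq2, which were used only in an alternative.  No libraries were duplicates (chi-square per degree of freedom 8.16 to 88.8 between mice of a group).

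Genes were named from GENCODE vM39 (33184 of 33618 identifiers matched). Genes were filtered with filterByExpr, leaving 16753, normalized by TMM and tested with edgeR 4.0.16 (quasi-likelihood, genotype only, R 4.3.3), with Benjamini-Hochberg adjustment over all genes tested and a threshold of 0.05. Single members also had an exact two-sided permutation test of mean log2 CPM over all 1716 splits, whose smallest p is 0.000583. The code was tested on simulated data with 200 changed genes. TMM factors were 0.892 to 1.02 in fl/fl and 1.05 to 1.10 in iADKO. All libraries carry the same batch date in the labels.

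Members and gene lists were chosen with earlier results of these data known. Named genes are the members and Lmna, up to 4 genes of each list with the smallest adjusted p, those too low to test (not all are printed), and the genes closest to each member in log2 CPM after genotype means were subtracted (average log2 CPM of at least 1). Cd14, Nos2, the adipocyte markers in full and the overlapping genes Acaa1a and Fam114a1 are named outside that rule, after their values were seen. Receptor windows came from the starts of Ensembl canonical transcripts in GENCODE vM39 on GRCm39. Alternatives were DESeq2 1.42.0 (Wald test, and its size factors in edgeR), limma 3.58.1 on the rlog values, other filters, a replicate block, the animal-number series as a block (numbers more than 10 apart start a new series), marker scores as covariates and leaving out mice. Intervals of counts were not used, since the spread between mice is given. The values of 1 pathway gene are not reported here.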

Additional observations from a re-analysis of the deposited data

Results flagged for a closer look

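In 5 of 22 groups of mice tested (the members and Lmna in each genotype), a mouse lay far from the rest of its group by Dixon's criterion, which chance alone meets in about 1 in 20 groups. All 5 concerned endosomal receptors and the same 2 mice. The criterion is a cutoff and was applied to log2 CPM. These mice were also the highest fl/fl and lowest iADKO mouse for each surface receptor, without reaching the cutoff. The 22 groups share the same mice and are not independent. Replicate 5 of fl/fl lay above the other fl/fl mice for Tlr8 (40.1 CPM) and Tlr9 (15.1 CPM). Replicate 6 of iADKO lay below the other iADKO mice for Tlr7 (30.3 CPM), Tlr8 (21.0 CPM) and Tlr13 (28.7 CPM).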

How the results depend on the processing

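Of the members, 7 were higher (2 surface and 4 endosomal receptors), against 7 (2 and 4) with DESeq2 size factors, 8 (3 and 4) with the DESeq2 Wald test, 8 (3 and 4) with limma on rlog values and 8 (2 and 5) with a minimum of 10 counts in every mouse, and 0 were lower in any fit. Over all genes the main fit called 2367 higher and 2737 lower, and DESeq2 size factors 2176 and 2913. The DESeq2 Wald test called 2458 and 3221, limma 2237 and 2922, and the minimum of 10 counts 2421 and 2643. Without a filter 4 members passed, 2 of them endosomal, and 22 pathway genes were higher. Calls over all genes were then 1623 higher and 2382 lower. With the animal-number series as a block 0 members passed, 0 surface and 0 endosomal, with 40 genes higher and 14 lower over all genes and 1 pathway gene higher and 0 lower. With the macrophage score 0 members passed, with 83 genes higher and 58 lower, and 1 pathway gene higher and 0 lower. With the pan-leukocyte score 0 members passed, with 88 genes higher and 98 lower, and 1 pathway gene higher and 1 lower. Pathway genes lower were 5 with DESeq2 size factors and 6 with the DESeq2 Wald test, against 3. Leaving out fl/fl replicate 5 and iADKO replicate 6 together, chosen after seeing the data, gave 4 surface receptors higher and 8 pathway genes lower. Calls over all genes were 3282 higher and 3910 lower in that fit.

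Leaving out 1 mouse at a time gave 5 to 10 members higher and 0 to 0 lower, 2 to 4 surface and 3 to 5 endosomal receptors, 1769 to 3319 genes higher and 2216 to 3285 lower over all genes, and 25 to 54 pathway genes higher and 1 to 6 lower. Without fl/fl replicate 5, 10 members passed, with 3319 genes higher and 3285 lower over all genes. Tlr1, Tlr6, Tlr8, Tlr9 and Tlr13 passed in 13 of 13 such fits, Tlr7 and Myd88 in 4, Tlr3 in 3, and Tlr2 and Tlr4 in 1, without fl/fl replicate 5.

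Log2 fold changes turned negative with the macrophage score for Tlr2 (-0.14), Tlr4 (-0.0935), Tlr6 (-0.0311), Tlr7 (-0.187), Tlr8 (-0.127), Tlr5 (-0.161), Tlr12 (-0.366), Ly86 (-0.0187), Clec7a (-0.0344), Cd14 (-0.468), Unc93b1 (-0.0521), Syk (-0.0747), Dnase2a (-0.0219), Pld3 (-0.0312) and Oas1a (-0.102). With the pan-leukocyte score they did so for Tlr2 (-0.22), Tlr4 (-0.139), Tlr7 (-0.038), Tlr8 (-0.0331), Myd88 (-0.0565), Tlr5 (-0.0931), Tlr12 (-0.185), Ly86 (-0.0561), Clec7a (-0.175), Cd14 (-0.574), Unc93b1 (-0.042), Syk (-0.0266), Pld3 (-0.0363), Lgmn (-0.00576) and Oas1a (-0.0145). No other fit reversed a named gene. The cause of these changes was not tested.

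Whether the replicate numbers of the labels pair the mice was not tested. In 3 of 6 same-numbered pairs the correlation of deviations from the group means was over 0.1 (-0.0265 to 0.217, mean 0.107, against -0.02 for other pairs). With the replicate number as a block (fl/fl replicate 7, with no partner, left out), 8 members were higher, Tlr2 among them (adjusted p = 0.0381), with 2379 genes higher and 2454 lower over all genes.

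Library totals were even, so depth limits mainly genes with few counts, and the Tlr6 values rest on 72 to 215 counts per mouse.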
